A study of Mus musculus with 3 samples.

Results

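The regenerating islet-derived (Reg) family of the mouse was followed across 3 arrays of distal colon RNA. The family comprised the 7 genes Reg1, Reg2, Reg3a, Reg3b, Reg3d, Reg3g and Reg4. Its members were taken by gene symbol, but the family was chosen with earlier results of these data known. Each of the 7 was represented by 1 probe set among 19938 genes with a probe set of a single symbol. In short, the bactericidal pair Reg3b and Reg3g was higher in WT colitis than WT normal colon and higher again in IL-4Rα-/- colitis, Reg1 and Reg4 were highest in WT normal colon, and Reg2, Reg3a and Reg3d stayed near background.

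Reg proteins are small secreted proteins built on a C-type lectin fold. In the gut, Reg3b and Reg3g are made by epithelial cells, bind bacterial surfaces and kill bacteria, and so help to keep microbes away from the mucosal surface. Their expression depends on microbial signals through MyD88 and on IL-22, which acts on epithelial cells through STAT3. Reg1 and Reg2 are best known as abundant secretory products of the acinar cells of the pancreas, whereas Reg4 marks the deep crypt secretory cells that neighbour the stem cells of the colonic crypt.

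Colonic RNA came from male BALB/c mice, aged 10 to 12 weeks per the methods, on day 7. WT normal mice drank water, whereas WT colitis and IL-4Rα-/- colitis mice, littermates from crosses of Il4ra heterozygotes, received 3% dextran sulfate sodium (DSS), an agent that injures the colonic epithelium. Each group was a single pool on a single array, made from 4 mice for WT normal, 3 for WT colitis and 6 for IL-4Rα-/- colitis, and their disease activity index was 0 in every WT normal mouse, 3 to 4 in WT colitis and 0 to 3 in IL-4Rα-/- colitis. No array of untreated IL-4Rα-/- mice was analysed here, so genotype and the milder disease of that pool cannot be told apart. With 1 array per group no difference has an error, and none was tested.

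Values are log2 signals, so a difference of 1 is a 2-fold change, and signals are compared between arrays of the same gene only. Array medians were 4.11 in WT normal, 4.18 in WT and 4.11 in IL-4Rα-/- colitis. Probe sets of 1205 olfactory and vomeronasal receptors, which colon should hardly express, gave a guide to background, with a 95th percentile of 3.5. Of all 28944 probe sets, 46.9% carried the same value on all 3 arrays, and a further 19.2% the same value in WT normal and IL-4Rα-/- colitis only. Among the Reg genes, Reg3a alone had identical values, and the other 6 differed on every array. Il4ra, the disrupted gene, had log2 signals of 5.69 in WT normal, 6.63 in WT and 4.76 in IL-4Rα-/- colitis, lowest in the knockout but above the background guide, and the place of its probes relative to the disrupted part is not known here. The colonic enzyme gene Car1 lay between 12.67 and 12.83 on the 3 arrays, while 5 of 12 small intestinal genes, among them Fabp6, Lct and Sis, were below the background guide on each array, and others, such as Fabp2 (8.32 to 8.44) and Slc5a1 (7.62 to 7.90), were well above it.

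**Figure D1:**
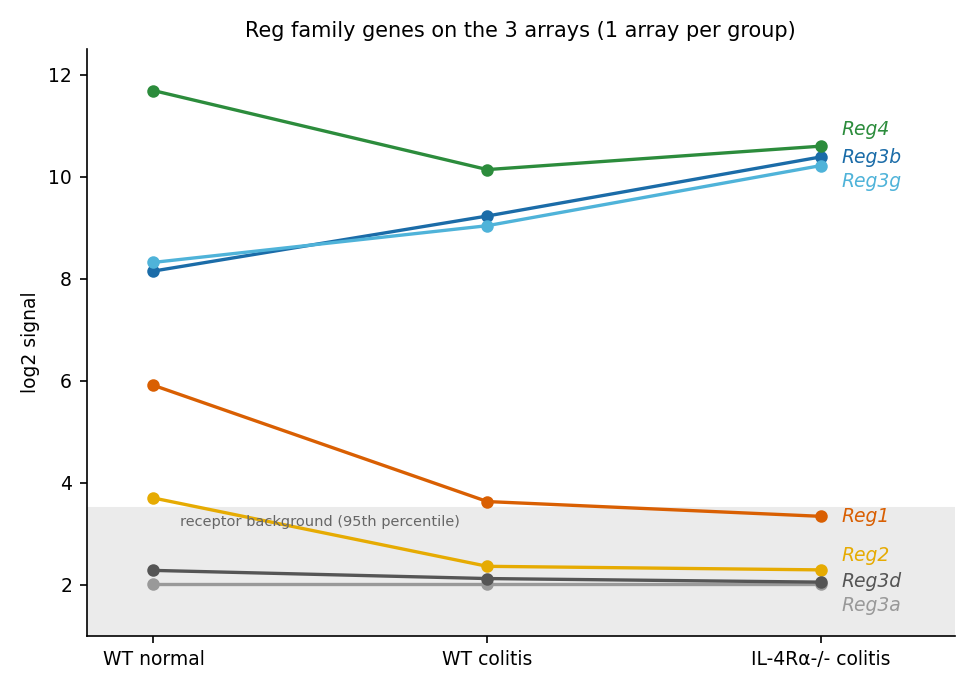
Log2 signal (y axis) of the 7 Reg genes on the 3 arrays (x axis, WT normal to the left, then WT colitis, then IL-4Rα-/- colitis), 1 point per array, with lines joining a gene's points and grey marking signals up to the background guide of 3.5. Reg3b and Reg3g climb from left to right to 10.39 and 10.22, Reg4 and Reg1 each have their highest point in WT normal, and Reg2, Reg3a and Reg3d lie in or near the grey zone.

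In WT colitis, 1 of the 7 Reg genes was over 2-fold higher than in WT normal, namely Reg3b, against 1.16% of all genes. More than 2-fold lower were 3 of the 7, namely Reg1, Reg2 and Reg4, against 0.456% of all genes, and Reg2, a dim gene, drops out of this count if signals under the background guide are raised to it. Between the DSS-treated pools, 2 of the 7, Reg3b and Reg3g, were over 2-fold higher in IL-4Rα-/- colitis, against 0.271% of all genes. In that comparison 0 of the 7 were over 2-fold lower, against 0.908% of all genes. Relative to WT normal, IL-4Rα-/- colitis had 2 of the 7 over 2-fold higher, again Reg3b and Reg3g, against 0.186%, and 3 over 2-fold lower, again Reg1, Reg2 and Reg4, against 0.336%. The family therefore held differences in both directions, and its median difference was -0.16 for WT colitis against WT normal, 0 between the DSS-treated pools and -0.23 for IL-4Rα-/- colitis against WT normal. The median over all genes was 0 in each, a value that the many equal signals fix. Of the 7, 4 had a signal above 4 on some array, and Reg2, Reg3a and Reg3d did not. The comparisons share arrays and so are not independent of each other.

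Past 4-fold, the threshold the study used, WT colitis had 0 of the 7 higher than WT normal, against 0.181% of all genes, and 1 lower, Reg1, against 0.14%. Between the DSS-treated pools 0 of the 7 were past 4-fold on the higher side, against 0.0451%, and 0 on the lower side, against 0.15%. IL-4Rα-/- colitis set against WT normal had 1 of the 7 past 4-fold on the higher side, Reg3b, against 0.0251%, and 1 on the lower side, Reg1, against 0.16%.

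Reg3b and Reg3g showed the same order on the 3 arrays. Reg3b, also known as pancreatitis-associated protein, had log2 signals of 8.15 in WT normal, 9.23 in WT and 10.39 in IL-4Rα-/- colitis. Reg3g had 8.32 in WT normal, 9.04 in WT and 10.22 in IL-4Rα-/- colitis. Both were thus lowest in untreated colon and highest in the DSS-treated knockout, the pool with the milder disease.

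In WT colitis, Reg3b was 2.11-fold and Reg3g 1.65-fold higher than in WT normal, at ranks 191 and 517 from the top of 19938 genes. In IL-4Rα-/- colitis, Reg3b was 2.23-fold and Reg3g 2.27-fold higher than in WT colitis, at ranks 37 and 36. Across both steps, IL-4Rα-/- colitis exceeded WT normal 4.72-fold for Reg3b and 3.73-fold for Reg3g. These were ranks 5 and 6 among all genes, behind Nos2, Clca4b, Ido1 and Lrg1. The log2 differences of the pair differed from each other by 0.36 for WT colitis minus WT normal and by -0.02 for IL-4Rα-/- colitis minus WT colitis, Reg3b minus Reg3g. How far each probe set also detects transcripts of the other gene was not tested, since probe sequences were not used here.

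Any higher signal at each step, however small, was seen in 391 of 19938 genes. Genes over 2-fold higher in WT colitis than WT normal and over 2-fold higher again in IL-4Rα-/- colitis numbered 2, Reg3b and Nos2, the inducible nitric oxide synthase. Reg3b was close to this cut at the first step, with a log2 difference of 1.08. Nos2 had log2 signals of 3.63 in WT normal, 5.31 in WT and 6.93 in IL-4Rα-/- colitis. With a log2 difference above 0.7 at each step, a bar set after the values had been seen, there were 4 such genes, the other two being Reg3g and Ms4a12, while Ido1 lay at 0.70 on the second step and so just outside. Both steps use the WT colitis array, with opposite sign.

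The DNA just before the start sites of Reg3b and Reg3g is shown because the pair had the same order on the 3 arrays. The 250 bases upstream of each start come from RefSeq on build GRCm38.p6, which is the C57BL/6J and not the BALB/c genome, and are written on the strand of the gene. Capitals mark the letters TATAAA, the core of a TATA box, and the letters TTC and GAA spaced by 3 bases, the form of motif bound by STAT proteins such as STAT3.
Reg3b, chr6:78370635-78370884, plus strand: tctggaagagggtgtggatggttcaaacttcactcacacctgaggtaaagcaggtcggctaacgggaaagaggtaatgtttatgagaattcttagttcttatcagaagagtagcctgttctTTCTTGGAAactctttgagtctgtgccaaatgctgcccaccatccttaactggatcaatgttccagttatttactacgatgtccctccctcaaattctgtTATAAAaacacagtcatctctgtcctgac
Reg3g, chr6:78468875-78469124, minus strand: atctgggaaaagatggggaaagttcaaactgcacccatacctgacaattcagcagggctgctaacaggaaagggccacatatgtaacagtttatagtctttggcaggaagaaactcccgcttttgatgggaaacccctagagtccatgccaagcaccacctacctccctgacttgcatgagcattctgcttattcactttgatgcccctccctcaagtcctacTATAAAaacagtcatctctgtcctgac
Aligned end to end, these stretches were identical at 68.4% of the aligned columns, the highest value of the 21 pairs of Reg genes, whose other values ran from 43.9% to 54.4%. They ended in the same run of 20 bases, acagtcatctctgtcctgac, and each carried TATAAA, beginning 29 bases before the start in Reg3b and 27 in Reg3g. On the strand of the gene, TATAAA was found in 4 of the 7 Reg stretches and in 7.59% of 32851 RefSeq promoters over the same 250 bases. The STAT-type letters TTCNNNGAA, which read the same way on both strands, were present in Reg3b, beginning 129 bases before the start, and in Reg3d, against 7.02% of all promoters, and not in this window of Reg3g. With a spacing of 4 bases, the form preferred by STAT6 downstream of IL-4Rα, the letters occurred in Reg1 of the 7 genes and in 5.85% of all promoters.

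**Figure D2:**
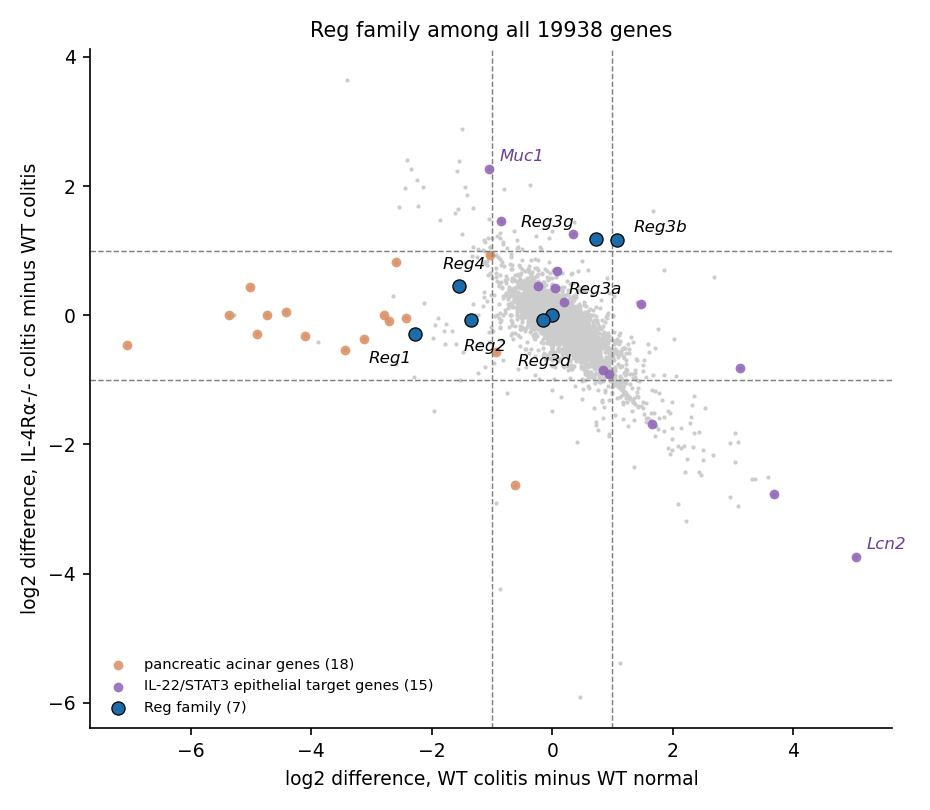
Each gene (grey) by its log2 difference of WT colitis from WT normal (x axis) and of IL-4Rα-/- from WT colitis (y axis), with the Reg family, 15 IL-22/STAT3 target genes and 18 pancreatic acinar genes in colour and dashed lines at 2-fold. Reg3b and Reg3g lie to the upper right, at positive values on both axes, which share the WT colitis array. Reg1, Reg2 and Reg4 lie to the left, as do most of the acinar genes.

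The signalling axis known to drive Reg3 expression was examined on gene lists. Il22 itself has no single-symbol probe set here. Of 8 other ligands on the list, 1 was over 2-fold higher in WT colitis and 0 lower, and 1 was over 2-fold lower in IL-4Rα-/- than in WT colitis. In each case this was Il11, a STAT3-activating cytokine of the IL-6 family, with 3.24 in WT normal, 5.43 in WT and 3.41 in IL-4Rα-/- colitis. Il6 had 2.06, 2.98 and 2.06, all below the background guide, and Il17a had 2.76 on every array.

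Most receptors and transducers of the axis were within 2-fold on the 3 arrays. Some, such as Il10rb, Il17rc, Tyk2 and Stat5b, had the same value on every array, and others only in WT normal and IL-4Rα-/- colitis. Such equal values are frequent in these data and unexplained, so they cannot be read as unchanged expression. Il22ra1, the epithelial chain of the IL-22 receptor, had 7.62 in WT normal, 7.67 in WT and 7.62 in IL-4Rα-/- colitis, and Stat3 had 8.88, 8.93 and 8.70. Of 9 receptors and 7 transducers, 1 of each was over 2-fold higher in WT colitis. These were Osmr, the oncostatin M receptor chain, with 5.23, 7.22 and 5.87, and Socs3, the feedback inhibitor that STAT3 induces, with 5.15, 6.48 and 5.57. Osmr was also the only one of the 16 past 2-fold between the DSS-treated pools, at -1.35 for IL-4Rα-/- colitis minus WT colitis, against -0.91 for Socs3. Extl3, a reported receptor for Reg proteins, had 6.29, 6.58 and 6.08. On these arrays Reg3b and Reg3g were higher in IL-4Rα-/- than in WT colitis, and Il11, Osmr and Socs3 were lower. For Socs3 this was less than 2-fold. Il11 in IL-4Rα-/- colitis lay under the background guide and was at least 3.81-fold lower. With Il22 not measured, how signalling of this axis relates to the Reg3 pair was not tested.

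Other epithelial genes reported to be induced by IL-22 or STAT3, 15 in all, split between the DSS-treated pools, with 3 over 2-fold higher and 3 over 2-fold lower in IL-4Rα-/- than in WT colitis and a median log2 difference of 0.17. On the higher side with the Reg3 pair were Muc1, a transmembrane mucin, at 2.26, Saa1, a serum amyloid, at 1.46, and Duoxa2, the maturation factor of dual oxidase, at 1.25. On the lower side were the iron-chelator-binding protein Lcn2 at -3.75, Saa3 at -2.77 and S100a8, a calprotectin subunit, whose signal of 2.58 in IL-4Rα-/- colitis was under the background guide, so that it was at least 1.71-fold lower and 2 of the 3 remain over 2-fold lower against that guide. S100a8 and Lcn2 are also made by neutrophils. For WT colitis minus WT normal, 5 of the 15 were over 2-fold higher and 1 lower, or 4 and 1 against the background guide. The 5 were Lcn2 at 5.04, Saa3 at 3.68, Lrg1 at 3.12, Steap4 at 1.47 and S100a8, which was at least 1.71-fold higher. In IL-4Rα-/- colitis, Lcn2 and Saa3 remained above WT normal, by 1.29 and 0.91. Muc1 was the 1 lower gene, at -1.05, and Saa1 was at -0.85, unlike the Reg3 pair, which was higher at that step. Duoxa2 was at 0.35 there. For IL-4Rα-/- colitis minus WT normal, 5 of the 15 were over 2-fold higher and 0 lower, with a median of 0.61, the highest being Lrg1 at 2.31 and Steap4 at 1.64.

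**Figure D3:**
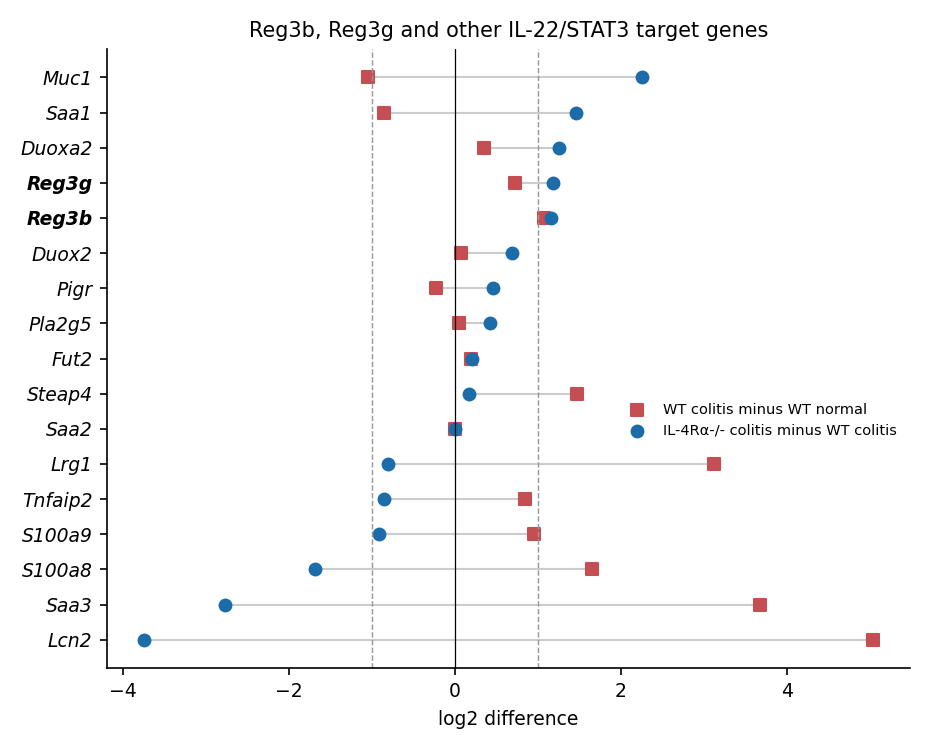
Log2 difference (x axis) of Reg3b, Reg3g and 15 epithelial genes reported as IL-22 or STAT3 targets (y axis, sorted), for WT colitis minus WT normal (red squares) and IL-4Rα-/- colitis minus WT colitis (blue circles), with dashed lines at 2-fold. Lcn2, Saa3 and S100a8 switch from right to left, whereas both values of Reg3b (1.08 and 1.16) and Reg3g (0.72 and 1.18) stay to the right of 0.

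Between the DSS-treated pools, genes of microbial sensing differed less than the Reg3 pair. Of 16 genes of TLR and MyD88 signalling, 0 were over 2-fold different in that comparison, with differences from -0.69 for Tlr7 to 0.44 for Tlr2, and Myd88 had 7.64, 7.72 and 7.64. Some of the 16, among them Ticam1, Irak1, Nod1 and Nod2, had the same value on every array. Their lack of a difference cannot be read as unchanged expression. In WT colitis, 1 of the 16 was over 2-fold higher than in WT normal, Tlr7, with 2.78 in WT normal and 3.81 in WT colitis, which is at least 1.24-fold against the background guide. Nfkbia, an inhibitor of NF-κB that NF-κB itself induces, was at 0.99 in that comparison, above the 0.72 of Reg3g. Stat6, the transducer of IL-4Rα, had 7.20, 7.38 and 7.20.

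Other secreted defence proteins of the mucosa differed in both directions. Of 21 such genes, 2 were over 2-fold higher and 5 over 2-fold lower in IL-4Rα-/- than in WT colitis, with a median of -0.02, which was -0.65 over those with a signal above 4. Higher were Wfdc2 at 1.99 and the chemokine Ccl28 at 1.06. Lower were Itln1, a lectin like the Reg proteins but of another fold, at -5.39, the ribonuclease Ang4 at -4.24, Lcn2, S100a8 (as above, at least 1.71-fold), and the protease inhibitor Slpi at -1.48. Zg16, another secreted lectin, had 12.12 on every array, and Pla2g2a, a bactericidal phospholipase, had a difference of 0.51. Of 14 genes of the IL-4 and IL-13 axis, 0 were over 2-fold higher and 5 over 2-fold lower in IL-4Rα-/- than in WT colitis. The 5 were the disrupted gene Il4ra at -1.87, the mast cell proteases Mcpt1 at -1.82 and Mcpt2 at -1.97, and Itln1 and Ang4, already counted above. Mcpt1 and Mcpt2 stayed above WT normal in IL-4Rα-/- colitis, by 1.21 and 1.12. Between the DSS-treated pools, Itln1 and Ang4 thus went the opposite way to Reg3b and Reg3g.

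Cell-type markers were read beside the Reg3 pair, since in a bulk sample more cells of a type and more RNA per cell cannot be told apart. Of 8 pan-epithelial genes, 0 were over 2-fold different in any of the 3 comparisons, and their median difference for IL-4Rα-/- colitis minus WT colitis was 0.06, with a range of -0.08 to 0.21. Of 11 colonic epithelial genes, 3 were over 2-fold higher in IL-4Rα-/- than in WT colitis and 0 lower, with a median of 0.34. The 3 were Slc37a2 at 2.02, the distal colon gene Hoxb13 at 1.97 and the water channel Aqp8 at 1.64, and for Hoxb13 and Aqp8 this followed a lower signal in WT colitis than WT normal (-2.45 and -1.56), unlike the Reg3 pair. Of 8 measured Paneth cell genes, 2 were over 2-fold lower and 0 higher, Itln1 and Ang4. Lyz1 had 7.44, 7.80 and 7.01, and the defensin Defa24 was at 1.98, 1.98 and 1.85. The other defensins among the 14 listed Paneth cell genes had no single-symbol probe set. Of 12 neutrophil genes, 2 passed 2-fold on the lower side and 0 on the higher side in the knockout pool against WT colitis, S100a8 and Mmp9. These were at 4.27 and 4.58 in WT and at 2.58 and 3.50 in IL-4Rα-/- colitis, or at least 1.71-fold and 2.11-fold lower against the background guide. Ly6g, the brightest of the list, had 10.24, 10.81 and 10.60. In WT normal the other 11 of the 12 were at or below the guide, so the source of the Ly6g signal is not known here. Mpo was at 2.32 on every array, below the guide, whereas by staining the paper counted fewer MPO-positive cells in IL-4Rα-/- than in WT colitis. Of 12 genes of the small intestinal epithelium, where Reg3b and Reg3g are abundant, 1 was over 2-fold lower and 0 higher, the phosphatase Alpi at -1.34. The part of cell composition in the Reg3b and Reg3g differences was not tested.

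Among the genes with a signal above 4 on some array, those closest to Reg3g by Euclidean distance over the differences WT colitis minus WT normal and IL-4Rα-/- colitis minus WT colitis were Ms4a12, a colonocyte membrane protein, at 0.02, Duoxa2 at 0.38, the cytotoxic protease Gzmb at 0.41, the cytokine Il18 at 0.45 and the adenylate kinase Ak4 at 0.50. Closest to Reg3b were Ms4a12 at 0.37, the epithelial kinase Ptk6 at 0.60, Gzmb and Ak4 at 0.67 and Duoxa2 at 0.74. Ms4a12 had 7.69 in WT normal, 8.40 in WT and 9.56 in IL-4Rα-/- colitis. Il18 had 5.94, 6.30 and 7.75. With only 3 arrays, such closeness describes 3 values and no more.

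Reg4 had log2 signals of 11.69 in WT normal, 10.14 in WT and 10.60 in IL-4Rα-/- colitis. It was lower on both DSS arrays, and least so in the knockout. In WT colitis it was 2.93-fold lower than in WT normal, at rank 42 from the bottom, whereas IL-4Rα-/- colitis was 2.13-fold lower than in WT normal, at rank 63 from the bottom. The difference between the DSS-treated pools, 1.38-fold in favour of IL-4Rα-/- colitis, was below 2-fold.

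Genes that share the secretory lineage with Reg4 were read beside it. Of 11 measured deep crypt secretory and goblet cell genes, 0 were over 2-fold different in WT colitis from WT normal, with a median of -0.08, against -1.55 for Reg4. Spink4, a protease inhibitor of goblet and deep crypt secretory cells, had the most negative of these differences, with 10.58 in WT normal, 9.84 in WT and 9.95 in IL-4Rα-/- colitis. Kit, a receptor of deep crypt secretory cells that interstitial cells and mast cells also carry, had 7.19, 7.43 and 7.19. Muc2, the main secreted mucin, had 12.83, 12.88 and 12.71, and Clca1, with 12.31, 12.09 and 11.10, was the 1 gene of the 11 over 2-fold lower in IL-4Rα-/- colitis than WT normal, at -1.21 against -1.09 for Reg4.

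Closest to Reg4 by the same distance were the kinase Plk3 at 0.09, the potassium channel subunit Kcne3 at 0.37, the transcription factor Foxa3 at 0.37, the retinol carrier Rbp4 at 0.43 and Id1 at 0.46. Foxa3, which goblet cells express, had 7.69 in WT normal, 6.38 in WT and 6.56 in IL-4Rα-/- colitis. Plk3 had 7.47, 5.94 and 6.31. Of 9 enteroendocrine genes, another secretory lineage, 2 were over 2-fold lower in WT colitis than WT normal, the peptide hormones Insl5 at -1.86 and Pyy at -1.13. In IL-4Rα-/- colitis these were closer to the untreated level than Reg4 was, with differences from WT normal of -0.38 and 0.03 against -1.09 for Reg4.

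Reg1, known as pancreatic stone protein, had log2 signals of 5.91 in WT normal, 3.63 in WT and 3.34 in IL-4Rα-/- colitis. It was clearly above background in the untreated pool only. In WT colitis it was 4.86-fold lower than in WT normal, at rank 24 from the bottom, and in IL-4Rα-/- colitis at least 5.31-fold lower, measured against the background guide. Reg2, its close relative, had 3.70, 2.36 and 2.29. Its signal in WT normal lay just above the background guide, so that the difference from WT normal, past 2-fold as deposited, is at least 1.15-fold when measured against that guide.

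**Figure D4:**
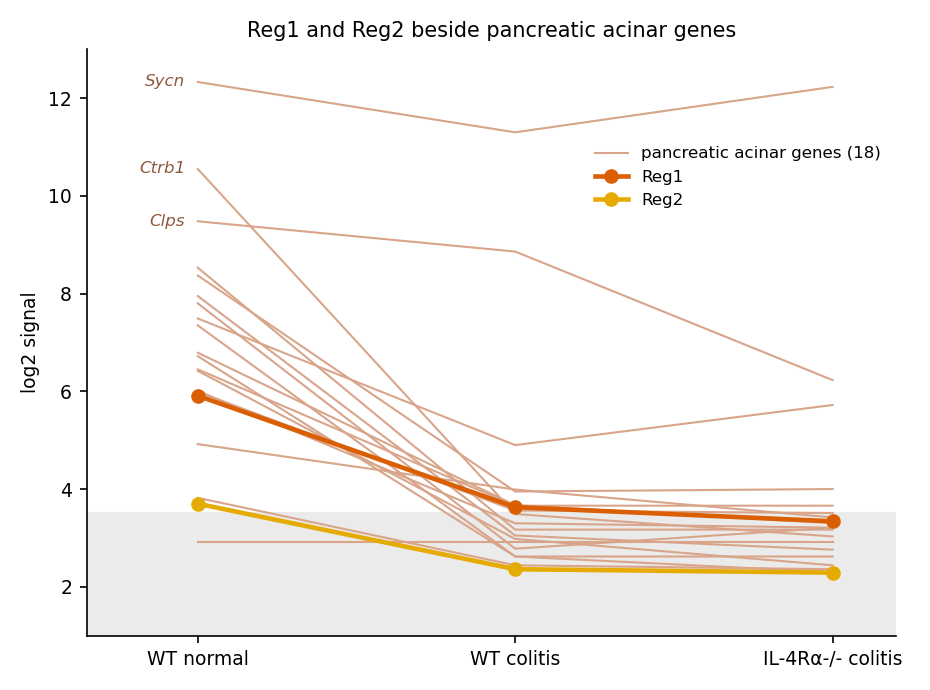
Log2 signal (y axis) of Reg1, Reg2 and 18 pancreatic acinar genes on the 3 arrays (x axis), 1 point per array, with grey marking signals up to the background guide of 3.5. Reg1 (5.91, 3.63 and 3.34) and Reg2 drop with most of the acinar lines between WT normal and WT colitis, while Sycn (12.33, 11.30 and 12.23) and Clps (9.48, 8.86 and 6.23) stay far above the grey zone.

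Reg1 was lower on the DSS arrays along with digestive enzyme genes of the pancreas. Of 18 measured genes on a list of pancreatic acinar cells, 15 were over 2-fold lower in WT colitis than WT normal and 0 higher, with a median of -2.96, and 16 were lower in IL-4Rα-/- colitis than WT normal. With signals under the background guide raised to it, these counts were 14 and 15, and the medians -2.86 and -3.07. Their log2 signals ran from 2.92 to 12.33 in WT normal, with a median of 7.07, and the median was 3.40 in WT and 3.21 in IL-4Rα-/- colitis. The chymotrypsinogen Ctrb1 had 10.55, 3.49 and 3.03, and the carboxypeptidase Cpa1 had 8.53, 3.17 and 3.17. Of the 5 genes closest to Reg1, 2 were on that list, the elastase Cela2a at a distance of 0.28 and the chymotrypsin Ctrc at 0.47, and the others were Car3 at 0.31, Dnajb1 at 0.36 and Hbegf at 0.45. Of 7 islet genes, 0 were over 2-fold different in any comparison. Ins2 and Iapp were at 2.62 on every array, whereas the hormone genes Gcg and Ppy, of which at least Gcg is also expressed by enteroendocrine cells, had 8.67, 8.05 and 8.34 and 8.11, 8.10 and 8.29. All these differences rest on the 1 WT normal array, and whether acinar RNA in that pool accounts for the Reg1 signal was not tested.

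Reg3a and Reg3d, which belong to the Reg3 branch by name, were not detected above background. Reg3a had 2.01 on every array, and Reg3d, the relative of islet neogenesis-associated protein, had 2.28, 2.12 and 2.05. All 6 values were below the background guide, so no fold is given, and a low level of either transcript cannot be seen on this scale.

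Apart from Reg4 on chromosome 3, the family lies in 1 cluster on chromosome 6, and its order in the RefSeq annotation of GRCm38.p6 sets the results out by position. The order is Reg3b, Reg3d, Reg3a, Reg2, Reg1 and Reg3g, with 1 pseudogene between Reg1 and Reg3g, and Reg3d and Reg3g on the minus strand. Reg3b and Reg3g, the genes that were higher, are thus the outermost of the cluster. Of the 4 between them, Reg1 was lower on the DSS arrays. Reg2 lay near the background guide, and Reg3d and Reg3a were below it on every array, so no difference of theirs can be judged.
Reg1, chr6:78425733-78425982, plus strand: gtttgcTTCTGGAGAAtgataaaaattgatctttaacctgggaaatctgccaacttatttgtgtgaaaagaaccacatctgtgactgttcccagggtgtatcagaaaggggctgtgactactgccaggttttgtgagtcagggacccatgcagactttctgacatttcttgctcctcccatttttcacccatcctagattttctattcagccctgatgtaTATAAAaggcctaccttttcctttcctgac
Reg4, chr3:98221906-98222155, plus strand: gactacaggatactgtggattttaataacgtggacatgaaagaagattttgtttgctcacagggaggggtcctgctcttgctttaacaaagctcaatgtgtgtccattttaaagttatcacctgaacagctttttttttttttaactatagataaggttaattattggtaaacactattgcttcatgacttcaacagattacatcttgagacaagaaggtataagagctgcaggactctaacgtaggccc
These stretches of 250 bases upstream of Reg1 and Reg4 are given for contrast with those of the Reg3 pair, with capitals marking TATAAA and the letters TTC and GAA spaced by 4 bases in Reg1. In Reg4 none of the searched letters was found in this window. Identity over the aligned columns was 50% between Reg1 and Reg3b, 54.4% between Reg1 and Reg2, and from 44.3% to 47.8% between Reg4 and the other 6.

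**Figure D5:**
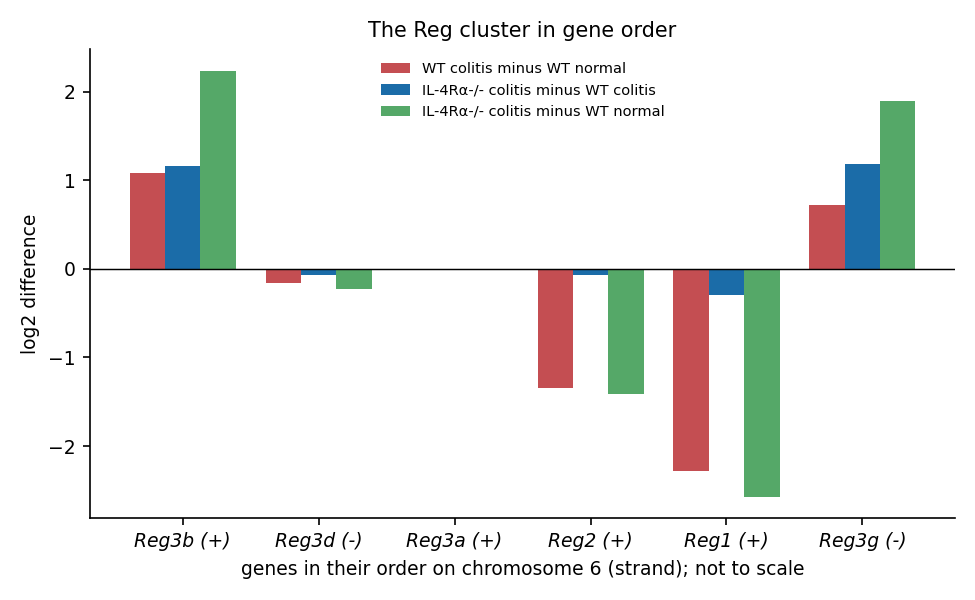
Log2 differences (y axis) of the 6 Reg genes of chromosome 6 in their order along the chromosome (x axis, strand in brackets, not to scale), with a bar for each of the 3 comparisons as deposited, also where a signal was under the background guide (Reg2, Reg3d and, in IL-4Rα-/- colitis, Reg1). Bars of Reg3b and Reg3g at the ends point up, those of Reg1 and Reg2 point down, and Reg3a has no bar because its values were equal.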

How the data were processed

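RNA from distal colon was measured on 1 GeneChip Mouse Gene 1.0 ST array per group, with RNA pooled from 4, 3 and 6 mice. The labels also name a Cy3 labelling kit of another maker. The authors deposited log2 signals per probe set, with 2 decimals. The methods name Affymetrix GeneChip Analysis Suite software, and median-centred log2 levels for display. How probes were summarised and how arrays were scaled for the deposited values was not given in the sources at hand here. Differences were taken between the deposited log2 values, and a gene was counted past 1 or -1 (2-fold). Gene symbols came from GEO's platform annotation, updated by gene number through RefSeq (21698 of 21789 single-symbol probe sets matched). A gene with more than 1 probe set took the values of its brightest by mean. Where the lower signal was under the 95th percentile of olfactory and vomeronasal receptors, a fold is given as at least the value against that percentile.

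With 1 array per group no test, error or p-value could be given, and the number of arrays limits precision. Named genes were the 7 Reg genes, up to 4 genes per list and comparison past 2-fold with a signal over 4, preset ligands, receptors and transducers, and the 5 genes nearest each Reg gene that passed 2-fold with a signal over 4. Other genes, such as Il17a, Tlr7, Spink4, Muc2 or Car1, were named after their values were seen. The Reg genes, gene lists and rules were chosen with earlier results of these data known. Counting was tested on simulated data. Promoters were aligned with Biopython 1.88 (match 2, mismatch -1). The motif TATAAA was added after the sequences had been seen. Protein sequences were not used here. Python 3.11.15, numpy 2.4.6, pandas 2.3.3 and matplotlib 3.10.9 were used.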

Additional observations from a re-analysis of the deposited data

How the results depend on the processing

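Median centring or quantile normalization of the arrays, the mean or median of a gene's probe sets (each Reg gene has 1), a filter at a signal of 4, the genes whose 3 values were not all equal, and raising signals under the background guide to it, the last 2 added after seeing the data, left every count of Reg genes past 2-fold within 1.5 times of the value reported. At the study's 4-fold threshold, WT colitis minus WT normal gave 0 higher, against 0.181% of all genes, and 1 lower (Reg1), against 0.14%. IL-4Rα-/- colitis minus WT colitis gave 0 higher, against 0.0451%, and 0 lower, against 0.15%. IL-4Rα-/- colitis minus WT normal gave 1 higher (Reg3b), against 0.0251%, and 1 lower (Reg1), against 0.16%. An offset of 32 on the linear scale shrank dim genes by construction, Reg1 to -1.05 and Reg2 to -0.28 for WT colitis minus WT normal, which left 2 Reg genes over 2-fold lower there, whereas for IL-4Rα-/- colitis minus WT normal Reg3b was at 2.12 and Reg3g at 1.80. Of 126 recomputed differences of Reg genes, 113 moved by less than the robust spread of all genes with unequal values. The mean and the median of a gene's probe sets gave 21 of these each, which could not move with 1 probe set per Reg gene. Those that moved by more came from the offset (8) and from raising signals to the background guide (5). Reg3b stayed at the edge of the 2-fold count for WT colitis minus WT normal, at 1.08 as deposited. It was at 1.03 after quantile normalization, 1.01 after median centring and, rounded, 1 with the offset. No difference past 2-fold changed sign, while 30 of 102 list medians moved by more than the spread. The median over Reg genes with a signal above 4 was -0.415, 1.16 and 0.405 for WT colitis minus WT normal, the difference between the DSS-treated pools, and IL-4Rα-/- colitis minus WT normal, so that the last turned from -0.23. It leaves out the dim genes by construction. Among genes whose 3 values were not all equal, 2.14% and 0.842% passed 2-fold on the higher and lower side for WT colitis against WT normal, 0.5% and 1.68% between the DSS-treated pools, and 0.342% and 0.62% for IL-4Rα-/- colitis against WT normal. Leaving out a replicate was not possible with 1 array per group. No paired analysis was possible because each group has 1 array. The planned protein alignment was not run. Signals under 3.5 cannot be told from background.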

Other observations

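The genes with a larger log2 difference of IL-4Rα-/- colitis over WT normal than Reg3b and Reg3g were Nos2, described above, Clca4b, a chloride channel accessory protein with log2 signals of 6.54 in WT normal, 9.23 in WT and 9.82 in IL-4Rα-/- colitis, and Ido1, the tryptophan-degrading enzyme, with 6.17, 8.03 and 8.73. The remaining gene was Lrg1, a secreted leucine-rich glycoprotein, with 4.25, 7.37 and 6.56.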
